A study of Sus scrofa with 8 samples.

Results

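Mitochondrial respiratory chain and tricarboxylic acid (TCA) cycle genes were measured in whole blood of 4 pregnant and 4 non-pregnant sows (Sus scrofa). A gene was included when the RefSeq transcript named for its probe carried a pig symbol of a subunit of complexes I to V, of cytochrome c, of the E1 component of pyruvate dehydrogenase or of a TCA cycle enzyme. The symbol pattern matched 102 symbols of the pig name table, of which 30 were present among the 2382 named genes of the array. These 30 genes were read by 123 probes, and every one of the 123 probes was well above background on all 8 arrays. The genes fall into 4 of complex I, 2 of complex II, 2 of complex III, 1 for cytochrome c, 9 of complex IV, 6 of complex V (ATP synthase), 5 of the TCA cycle and 1 cytosolic enzyme that shares the name pattern, MDH1. The symbol pattern found no gene of complex I assembly (0) and none of the pyruvate dehydrogenase E1 subunits PDHA and PDHB (0). NDUFA4 is counted with complex IV, where its product belongs despite its name. Symbols are those of the name table, which keeps older names for ATP synthase subunits.

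All sows were in the fifth parity and all were bled from the submandibular vein 14 days after insemination. The groups differed in 1 respect given by the labels, that the sows of one group were pregnant and those of the other were not; the labels do not state how pregnancy was established. The design text states that sows were chosen as pairs, most of them with a shared parent, and the labels do not tie replicate numbers to those pairs. Each sow had 1 single-colour array, so sow and array cannot be told apart. The p-values set the difference between group means against the spread within the groups of these 8 samples.

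The respiratory chain passes electrons from NADH and succinate through complexes I and II, ubiquinone, complex III and cytochrome c to oxygen at complex IV, and the proton gradient that this builds drives ATP synthase. The TCA cycle in the matrix supplies the NADH and succinate. In blood, lymphocytes, monocytes and platelets carry active mitochondria, neutrophils rely mainly on glycolysis, and mature red cells of mammals have lost their mitochondria.

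Values are log2 of the processed spot signal minus the array's 75th percentile, so that 0 is the 75th percentile of that array and a difference of 1 is a 2-fold difference in signal. Arrays had a 75th percentile of 143 to 298 signal units, 61.7% to 69.3% of probes well above background and 0 saturated spots. The arrays lay on 2 slides, with replicates 1 and 3 of both groups on slide 1 and replicates 2 and 4 on slide 2. Pairs of arrays correlated across probes at r of 0.870 to 0.984, and the lowest r was 0.946 without pregnant replicate 2, which stood apart from the rest. Defining markers of blood cell types were listed, but many had no probe of that name on the array and were not measured. Those named and above background were 7 of 7 for platelets (10 listed), 10 of 10 for neutrophils (15) and 6 of 6 for monocytes (11). They were 9 of 9 for T cells (13 listed), 8 of 8 for cytotoxic and NK cells (12) and 3 of 3 for B cells (7). For red cells they were 3 of 4 (21 listed). In bulk blood, fewer cells of a type and less RNA per cell cannot be told apart.

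Levels of the 30 genes did not separate pregnant from non-pregnant sows. By limma's moderated test over 26480 probes, taking Benjamini-Hochberg adjusted p-values under 0.05 as called, 0 of the 30 genes were called, where the background was 0% of all probes tested. At an unadjusted p under 0.05 the count was also 0 of 30, against 2.28% of all probes. The groups did not overlap for 0 of 30 genes, against 1.58% of all probes. Unadjusted p-values of the members ran from 0.167 (COX7C) to 0.988 (IDH2), and each adjusted p rounded to 1.00 in the limma fit. In all, 25 genes had a lower mean in pregnant sows and 5 a higher one, with a median log2 difference (pregnant minus non-pregnant) of -0.080. Over all probes the median was -0.044, with 43.3% of probes higher in pregnant sows. The lean toward lower values was not particular to the members. Of 29 cytosolic ribosomal protein genes, 27 were lower and 2 higher, with a median of -0.145. The members' 95% intervals reached a median of 0.64 on the log2 scale to either side, so differences inside that width were not resolved with 4 arrays a group.

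The split of 25 lower and 5 higher genes changed when certain single sows were left out. Without non-pregnant replicate 3 the split was 30 lower and 0 higher, with a median of -0.25. Without non-pregnant replicate 1 it was 14 lower and 16 higher, with a median of 0.023. Without pregnant replicate 3 it was 16 lower and 14 higher, with a median of -0.0096. Without non-pregnant replicate 4 the median was -0.039, with 18 lower and 12 higher. Leaving out any of the other 4 sows gave 23 to 26 lower and 4 to 7 higher genes, with medians of -0.14 to -0.082. On slide 1 alone the median was -0.092 and on slide 2 alone it was -0.15.

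**Figure D1:**
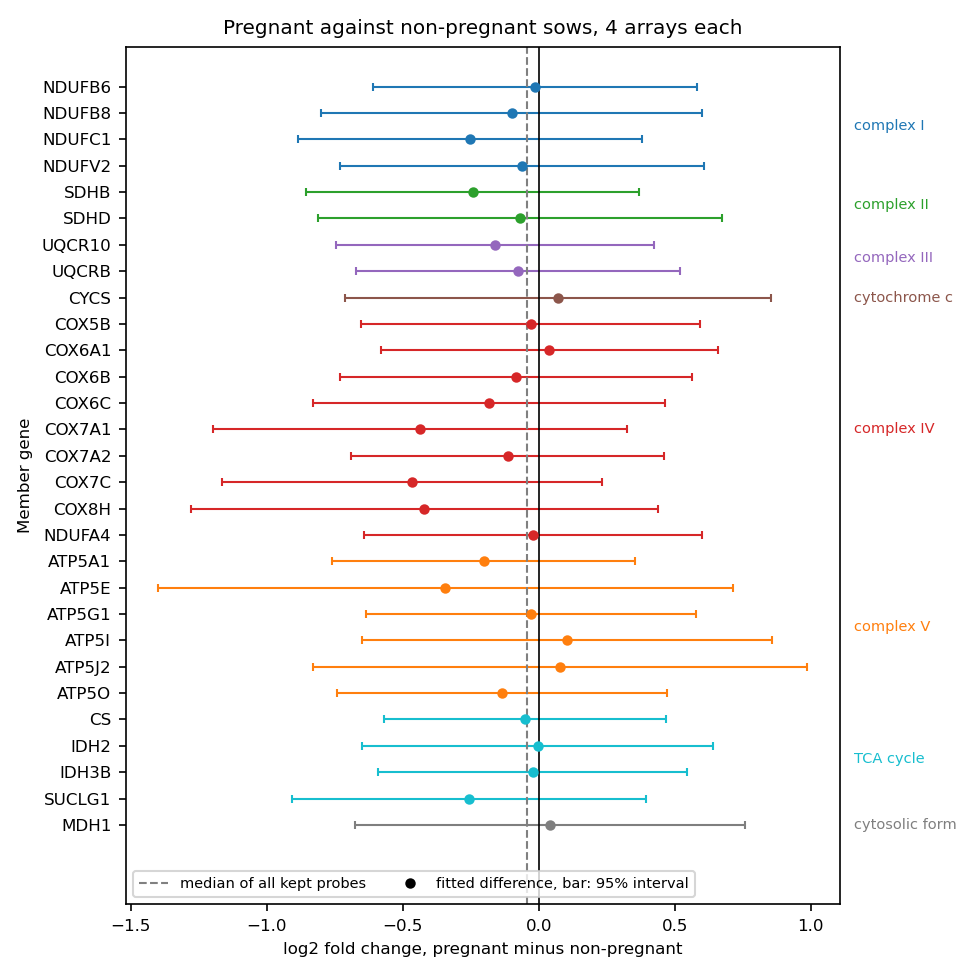
Log2 difference in signal (pregnant minus non-pregnant, horizontal axis) for each of 29 of the 30 genes, with points for the limma estimate and bars for its 95% interval, coloured by complex; the dashed line is the median of all probes tested (-0.044). Every interval crosses 0; COX7C at -0.47 and ATP5I at 0.10 are the outermost estimates.

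What the genes shared was their order across individual sows. For each gene, the deviation of every array from the gene's own mean over 8 arrays was taken. In non-pregnant replicate 3 all 30 of 30 genes lay below their own mean, with a median deviation of -0.45, and in pregnant replicate 3 again 30 of 30 lay below, with a median of -0.28. Non-pregnant replicate 1 had 28 of 30 above their mean, with a median of 0.43. For non-pregnant replicate 4 this was 26 of 30, with a median of 0.30. These are 3 sows of the non-pregnant group and 1 of the pregnant group, so high and low sows occurred within a group.

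The other sows were less uniform. Pregnant replicate 1 had 22 of 30 genes above their mean (median 0.20), pregnant replicate 2 had 17 (0.073), pregnant replicate 4 had 9 (-0.054) and non-pregnant replicate 2 had 13 (-0.0084); with quantile normalization pregnant replicate 2 stood at -0.16 and non-pregnant replicate 2 at 0.034. By the medians without quantile normalization, non-pregnant replicates 1 and 3, the highest and the lowest, lay on the same slide. The highest sow depended on the scaling. With quantile normalization non-pregnant replicate 4, on slide 2, was highest at 0.32, against 0.27 for non-pregnant replicate 1. With the deposited log2 values these 2 sows stood at 0.31 and 0.28. The part of the slide in this order was not tested.

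Direct comparison of sows within a group gave the size of this spread. Non-pregnant replicate 1 exceeded non-pregnant replicate 3 in 30 of 30 genes, with a median difference of 0.85 on the log2 scale (1.80-fold), from 0.079 for CS to 1.68 for CYCS. Over all probes the same pair differed by a median of -0.0073, and 49.6% of probes were higher in replicate 1. Non-pregnant replicate 4 exceeded replicate 3 in 29 of 30 genes (median 0.70, against 0.049 over all probes). Pregnant replicate 1 exceeded pregnant replicate 3 in 27 of 30 (median 0.38, against 0.14 over all probes). Pregnant replicate 2 exceeded pregnant replicate 3 in 21 of 30 (median 0.26, against -0.17 over all probes). The pairs set sows against those lowest in the order above, so large differences follow from that choice. A difference between single sows is also not comparable with a difference between means of 4 sows.

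The same order appeared more weakly in other bright probes. Among the 2973 probes whose mean lay between 2.51 and 5.33, the middle range of the members' own means, the median deviation was -0.19 (non-pregnant replicate 3), -0.12 (pregnant replicate 3), 0.19 and 0.10 (replicates 1 and 4 of the non-pregnant group). Over all probes the corresponding medians were -0.023, -0.015, 0.039 and 0.024. Cytosolic ribosomal protein genes, which encode the translation machinery outside mitochondria (29 genes), had medians of -0.41, -0.31, 0.46 and 0.21 in those 4 sows, and -0.097 in pregnant replicate 1, where the members stood at 0.20. No test compared the members with these sets.

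**Figure D2:**
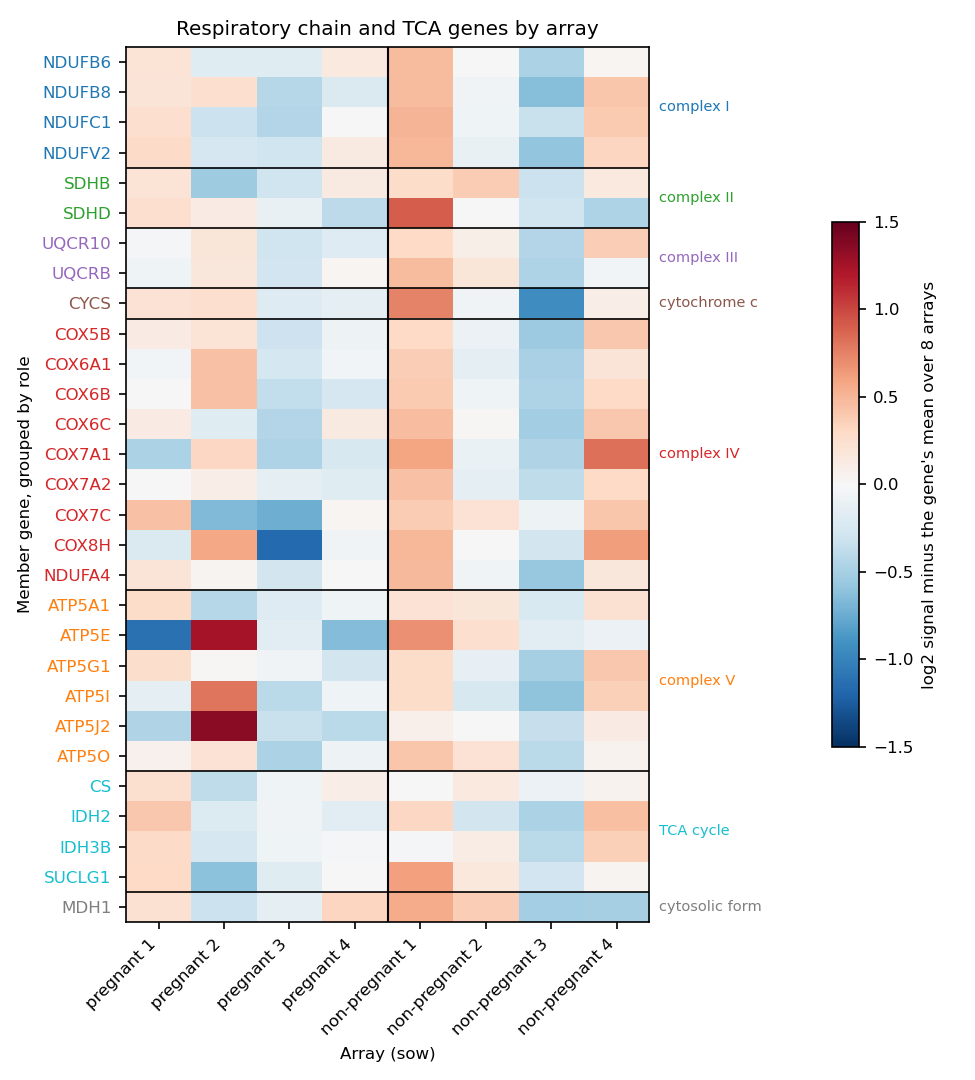
Deviation of each gene from its own mean over 8 arrays (colour, log2 units, red above and blue below) for 29 of the 30 genes in rows, grouped by complex, and the 8 sows in columns, with the pregnant group left of the line. The columns of pregnant replicate 3 and non-pregnant replicate 3 are below the mean in all 29 rows, non-pregnant replicate 1 is above in 27 of 29, and pregnant replicate 2 is high in part of complex V and low in the TCA cycle.

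**Figure D3:**
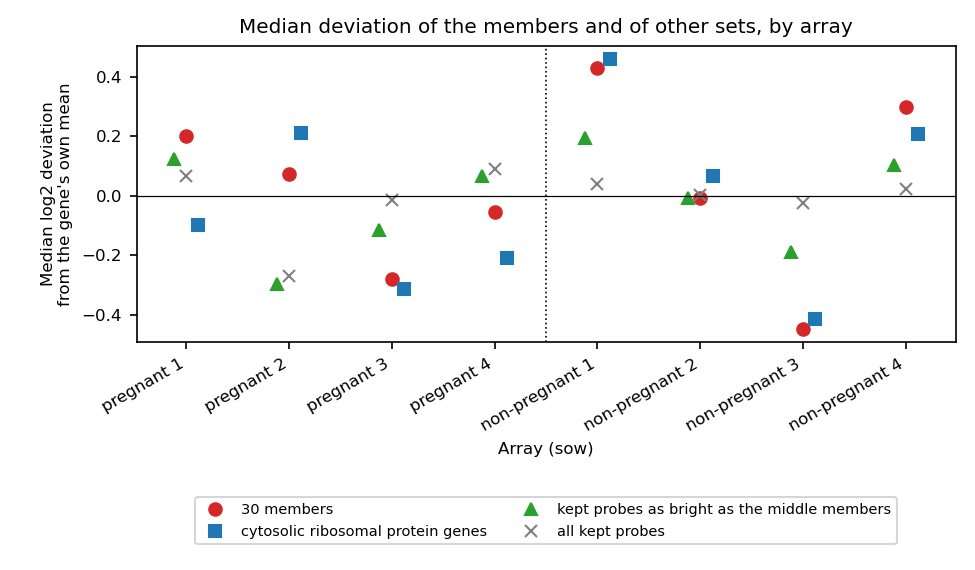
Median log2 deviation from the gene's own mean (vertical axis) in each sow (horizontal axis) for the 30 genes, 29 cytosolic ribosomal protein genes, 2973 probes of similar brightness and all probes tested. The 30 genes run from -0.45 in non-pregnant replicate 3 to 0.43 in non-pregnant replicate 1, the ribosomal protein genes from -0.41 to 0.46 in the same 2 sows, and all probes stay between -0.27 and 0.089.

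Markers of blood cell types are given beside this order, since the makeup of blood differs between animals. In non-pregnant replicates 1 and 3, the highest and the lowest for the members, the median deviation of 9 T cell markers was 0.29 and -0.029, of 8 cytotoxic and NK markers 0.42 and -0.27, of 3 B cell markers 0.42 and -0.22, and of 7 platelet markers 0.59 and -0.16. Neutrophil markers stood at -0.41 and -0.40 and monocyte markers at 0.10 and -0.38 in those 2 sows. Other sows did not all follow. In non-pregnant replicate 4 (members 0.30) T cell, cytotoxic and NK, B cell and platelet markers stood at 0.35, 0.14, -0.050 and -0.060. Neutrophil and monocyte markers there stood at 0.32 and -0.19. In pregnant replicate 1 (members 0.20) the lists in that order stood at 0.18, -0.12, 0.19, -0.38, -0.00062 and 0.37. In pregnant replicate 3 (members -0.28) they stood at -0.15, -0.27, -0.26, -0.24, 0.096 and 0.36. Between the groups, 9 of 9 T cell markers were lower in pregnant sows (median log2 difference -0.23) and 8 of 8 cytotoxic and NK markers (-0.55), while 6 of 6 monocyte markers were higher (0.45), with 0 of these genes called by limma and 1 (CD8A) at an unadjusted p under 0.05. The other lists were mixed or small, with 7 of 10 neutrophil markers higher (0.18), 5 of 7 platelet markers lower (-0.19), 3 of 3 B cell markers lower (-0.22) and 2 of 3 red cell markers lower (-0.22). The mean deviation of the T cell markers ran from -0.54 to 0.14 in pregnant and from 0.0011 to 0.26 in non-pregnant sows. Their part in the members' values was not tested.

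Complex I, which oxidises NADH, was represented by NDUFV2, an iron-sulfur subunit of its matrix arm, and by NDUFB6, NDUFB8 and NDUFC1, accessory subunits of its membrane arm. NDUFV2 measured 3.56, 3.03, 2.98 and 3.41 in pregnant replicates 1 to 4 and 3.77, 3.17, 2.68 and 3.60 in non-pregnant replicates 1 to 4. Both the highest and the lowest value belonged to non-pregnant sows, and the pregnant group lay inside their range. NDUFC1 measured 3.27, 2.69, 2.58 and 3.02 in pregnant and 3.53, 2.95, 2.68 and 3.40 in non-pregnant sows, in the same order of replicates. For NDUFC1 non-pregnant replicates 1 and 4 were the highest and pregnant replicate 3 the lowest, the groups overlapped, and the log2 difference was -0.25 (95% interval -0.88 to 0.38). The 4 genes had a median difference of -0.081 and were all lower in pregnant sows, with NDUFB6 at -0.013 and NDUFB8 at -0.10.

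Complex II, which oxidises succinate and belongs to both the chain and the TCA cycle, was represented by SDHB, its iron-sulfur subunit, and SDHD, a membrane anchor. SDHB measured 3.34, 2.61, 2.84 and 3.27 in pregnant and 3.41, 3.52, 2.82 and 3.29 in non-pregnant sows. Pregnant replicate 2 was lowest and non-pregnant replicate 2 highest, and the other values of both groups were mixed; the log2 difference was -0.24 (95% interval -0.85 to 0.37). SDHD measured 2.59, 2.47, 2.23 and 1.95 in pregnant and 3.25, 2.34, 2.05 and 1.88 in non-pregnant sows. At this probe non-pregnant replicate 4 was lowest, and the log2 difference was -0.070, or 0.22 without non-pregnant replicate 1, which held the one value above 3. At the other 4 SDHD probes non-pregnant replicate 3 was lowest and the differences were 0.12 to 0.19.

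Complex III, which passes electrons from ubiquinol to cytochrome c, was represented by the small subunits UQCR10 and UQCRB. UQCR10 measured 4.98, 5.18, 4.70 and 4.80 in pregnant and 5.29, 5.09, 4.56 and 5.37 in non-pregnant sows, a log2 difference of -0.16 (95% interval -0.75 to 0.42). UQCRB differed by -0.075 on the log2 scale, between 3.56 and 4.01 in pregnant and between 3.38 and 4.32 in non-pregnant sows. For both genes the pregnant sows spanned a narrower range that lay inside the non-pregnant one.

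CYCS encodes cytochrome c, which carries electrons between complexes III and IV and also triggers apoptosis once released into the cytosol. It measured 2.46, 2.50, 2.05 and 2.11 in pregnant and 2.99, 2.19, 1.31 and 2.35 in non-pregnant sows. Non-pregnant sows covered a 3.21-fold range, from replicate 3 to replicate 1, which enclosed every pregnant value. Means were 2.28 ± 0.23 (SD, n = 4) and 2.21 ± 0.69 (SD, n = 4), with a log2 difference of 0.072.

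Complex IV, cytochrome c oxidase, reduces oxygen to water; its catalytic core is encoded in mitochondrial DNA and the 9 genes measured here are nuclear. Its estimates reached furthest toward lower levels in pregnant sows, although none was called. COX7C, a small structural subunit, measured 5.89, 4.78, 4.71 and 5.47 in pregnant and 5.82, 5.67, 5.37 and 5.86 in non-pregnant sows. Pregnant replicates 2 and 3 lay below every non-pregnant sow, whereas pregnant replicate 1 was the highest of all 8. The means were 5.21 ± 0.57 (SD, n = 4) and 5.68 ± 0.23 (SD, n = 4), a log2 difference of -0.47 (0.723-fold, 95% interval 0.446 to 1.17). All 3 COX7C probes were lower in pregnant sows, between -0.47 and -0.42.

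Probes named for isoforms known from heart and skeletal muscle were also above background in blood, 1 probe for COX7A1 and 2 for COX8H. Signal from related genes at these probes was not tested. COX7A1, the muscle form of subunit VIIa, measured -0.23, 0.56, -0.22 and 0.00 in pregnant and 0.84, 0.15, -0.21 and 1.08 in non-pregnant sows. COX8H, the muscle form of subunit VIII, measured -0.93, -0.14, -1.88 and -0.77 in pregnant and -0.22, -0.73, -0.99 and -0.09 in non-pregnant sows. Non-pregnant replicates 1 and 4 were high for both genes, and pregnant replicate 2 was the highest of the pregnant sows for both. The log2 differences were -0.44 for COX7A1 (95% interval -1.20 to 0.33) and -0.42 for COX8H (95% interval -1.28 to 0.44). COX7A2, the form of subunit VIIa found in most tissues, differed by -0.11 and measured 5.80, 5.90, 5.65 and 5.61 in pregnant and 6.24, 5.66, 5.42 and 6.10 in non-pregnant sows. The difference of COX7A1 from COX7A2 between groups was not tested.

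The other complex IV genes, COX5B, COX6A1, COX6B, COX6C and NDUFA4, differed by -0.18 to 0.039 on the log2 scale. COX6A1, the form of subunit VIa found in most tissues, was the one member of the complex with a higher mean in pregnant sows (0.039). It measured 6.74, 7.22, 6.51 and 6.74 in pregnant and 7.15, 6.63, 6.29 and 6.97 in non-pregnant sows, with pregnant replicate 2 highest. Its sign was negative with quantile normalization (-0.029). Over the 9 genes, 8 were lower and 1 higher in pregnant sows, with a median of -0.11.

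Complex V, ATP synthase, held both the steadiest and the most variable members of the chain. ATP5A1, the alpha subunit of the F1 head, measured 5.95, 5.24, 5.47 and 5.61 in pregnant and 5.89, 5.85, 5.44 and 5.90 in non-pregnant sows. Pregnant replicate 2 was lowest and pregnant replicate 1 highest, the whole range being 1.63-fold, with a log2 difference of -0.20 (95% interval -0.76 to 0.35). ATP5E, the epsilon subunit of the central stalk, measured 8.01, 10.36, 8.95 and 8.47 in pregnant and 9.81, 9.38, 8.95 and 9.03 in non-pregnant sows. Here pregnant replicate 2 was highest and pregnant replicate 1 lowest, the reverse of ATP5A1 at its brightest probe, over a 5.13-fold range. The place of pregnant replicate 1 depended on the probe. It was highest at 3 of 14 ATP5A1 probes, and the second ATP5E probe was lowest in pregnant replicate 4. The log2 difference of ATP5E was -0.34 (95% interval -1.40 to 0.71), and its second probe gave 0.37.

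ATP5J2 and ATP5I, small subunits of the membrane sector, were also highest in pregnant replicate 2. ATP5J2, the f subunit, measured 5.44, 7.24, 5.55 and 5.48 in pregnant and 5.97, 5.88, 5.54 and 6.01 in non-pregnant sows. ATP5I, the e subunit, measured 4.85, 5.79, 4.59 and 4.92 in pregnant and 5.26, 4.75, 4.38 and 5.35 in non-pregnant sows. In both genes 1 pregnant sow stood above all others, and the log2 differences of 0.077 (ATP5J2) and 0.10 (ATP5I) included it. Without that sow ATP5I was at -0.15. The ATP5J2 values of the other pregnant sows, 5.44 to 5.55, lay near or below the lowest non-pregnant value (5.54). ATP5O, which links the F1 head to the peripheral stalk, differed by -0.14 and ATP5G1, which encodes the proton-carrying c subunit, by -0.028.

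Members of different roles, and of the same role, stood apart in this sow. In pregnant replicate 2 the median deviation was 0.51 for complex V, 0.20 for complex IV and 0.18 for complex III, against -0.38 for the TCA cycle, -0.22 for complex I and -0.20 for complex II. The median in this sow was -0.27 over all probes and -0.30 over the 2973 probes of similar brightness. The values of the TCA cycle, complex I and complex II thus lay near those of probes at large. Complex V stayed above 0 and the TCA cycle and complex I below 0 under each of 5 other scalings or probe rules, but complex IV stood at -0.066 with quantile normalization, complex III at -0.0037 in the deposited table and complex II at 0.068 with the mean of all probes of a gene. Roles were not uniform, since ATP5A1 of complex V was lowest there and COX7C of complex IV was low, and no test was made between roles. The 5 genes highest in this sow were COX6A1, COX6B, ATP5E, ATP5I and ATP5J2, and the 5 lowest there included SDHB, ATP5A1, CS and SUCLG1. The array of this sow had the lowest 75th percentile (143 signal units), and 37.9% of all probes had their lowest value on it, against 21.8% with their highest. The 3 red cell markers kept (HBE1 and KLF1 among them; TFRC did not pass the background filter) had a median deviation of 1.22 in this sow, -0.95 in pregnant replicate 1 and -0.87 in pregnant replicate 4. In non-pregnant replicates 1 to 4 they stood at -0.16, 0.49, 0.054 and -0.53, where ATP5E measured 9.81, 9.38, 8.95 and 9.03. The part of red cell RNA or of signal strength in these values was not tested.

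**Figure D4:**
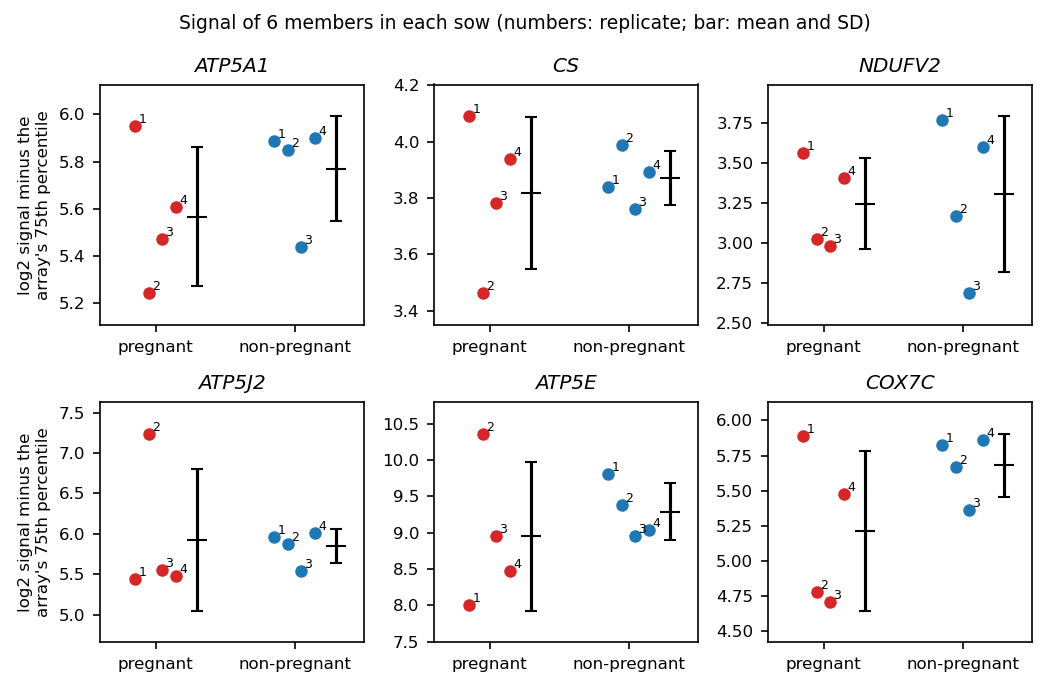
Log2 signal minus the array's 75th percentile (vertical axes, a separate scale for each panel) for 6 genes in pregnant and non-pregnant sows; points are sows with their replicate numbers, and bars are the mean and SD of 4. Pregnant replicate 2 is lowest for ATP5A1 and CS and highest for ATP5J2 and ATP5E, while NDUFV2 is highest in non-pregnant replicate 1 and lowest in non-pregnant replicate 3.

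TCA cycle enzymes had the smallest spread among sows of a group, with a median SD within groups of 0.29 over the 5 genes, close to that of complex III (0.31). CS, citrate synthase, which forms citrate from acetyl-CoA and oxaloacetate, measured 4.09, 3.46, 3.78 and 3.94 in pregnant and 3.84, 3.99, 3.76 and 3.89 in non-pregnant sows. Its SD within groups was 0.20, at percentile 2.64 of all probes, and its log2 difference was -0.052 (95% interval -0.57 to 0.47). Pregnant replicate 2 was the lowest of the 8 sows and pregnant replicate 1 the highest, and the non-pregnant values lay between them.

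Isocitrate dehydrogenases were also measured: IDH2 is the mitochondrial NADP-dependent enzyme and IDH3B a subunit of the NAD-dependent one. IDH2 measured 5.36, 4.76, 4.91 and 4.80 in pregnant and 5.27, 4.68, 4.49 and 5.40 in non-pregnant sows, with replicates 1 and 4 of the non-pregnant group and replicate 1 of the pregnant group high. IDH3B measured 2.71, 2.18, 2.36 and 2.40 in pregnant and 2.40, 2.54, 2.01 and 2.78 in non-pregnant sows. Their log2 differences were -0.0046 and -0.022, with groups that overlapped almost fully. SUCLG1, a subunit of succinyl-CoA ligase, measured 2.67, 1.75, 2.19 and 2.37 in pregnant and 2.99, 2.53, 2.08 and 2.41 in non-pregnant sows, a log2 difference of -0.26 (95% interval -0.91 to 0.39).

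Differences for the TCA cycle had opposite signs on the 2 slides. On slide 1 the 5 genes had a median log2 difference of 0.14 with 4 higher in pregnant sows, and on slide 2 a median of -0.37 with 5 of 5 lower. Slide 2 held pregnant replicate 2. The difference between slides was not called for any of the 30 members by limma's interaction term, with an unadjusted p of 0.235 or higher. MDH1, the cytosolic malate dehydrogenase of the malate-aspartate shuttle, measured 2.66, 2.11, 2.28 and 2.75 in pregnant and 2.99, 2.79, 1.92 and 1.94 in non-pregnant sows, a log2 difference of 0.042. It departed from the common order in non-pregnant replicate 4, where it was low and most members were high.

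The members' SD within groups had a median of 0.36, against 0.45 over all probes and 0.42 over 1817 named genes. It ran from CS, the lowest, to ATP5E (0.77, at percentile 81.4 of all probes). No test was made of this comparison.

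Separate probes for a gene showed which of these patterns did not depend on 1 probe. Of the 26 genes with 2 or more probes, the lowest sow was the same at every probe in 17 and the highest sow in 12. UQCRB had non-pregnant replicate 1 highest and non-pregnant replicate 3 lowest at 7 of 7 probes, and NDUFV2 had the same pair at 5 of 5. ATP5A1 had pregnant replicate 2 lowest at 14 of 14 probes and CS at 7 of 7, whereas ATP5E, ATP5I and ATP5J2 had the same sow highest at 2 of 2 each. Over the 123 probes, 64 were lowest in non-pregnant replicate 3 and 66 were highest in non-pregnant replicate 1.

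Between groups, 95 of 123 probes were lower and 28 higher in pregnant sows, with a median of -0.085. In 16 of the 26 genes all probes had the same sign, among them ATP5A1 with 14 of 14 lower (-0.31 to -0.088), ATP5O with 10 of 10 lower and COX7A2 with 5 of 5 lower. Probes of a gene read the same 8 sows. The 14 ATP5A1 probes were all lowest in pregnant replicate 2. Their differences ran from -0.58 to -0.16 on slide 2, which holds that sow, and from -0.093 to 0.060 on slide 1. The other 10 of the 26 genes had probes of both signs, and in 3 of them (ATP5E, CYCS and SDHB) the probes lay over 0.5 apart. No probe passed the adjusted threshold in limma (0 of 123), and 1 had an unadjusted p under 0.05. That probe was a second SDHB probe, which measured 2.03, 3.21, 2.46 and 2.38 in pregnant and 1.72, 2.24, 1.67 and 1.20 in non-pregnant sows (log2 difference 0.81), and its adjusted p by limma rounded to 1.00. The other 5 SDHB probes beside the brightest gave -0.099 to 0.27, so this value was not shared across the gene. At CYCS 1 probe measured -1.57 in pregnant replicate 2 and 1.12 to 2.56 in the other sows, and the 12 CYCS probes ranged from -0.997 to 0.33 in log2 difference.

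**Figure D5:**
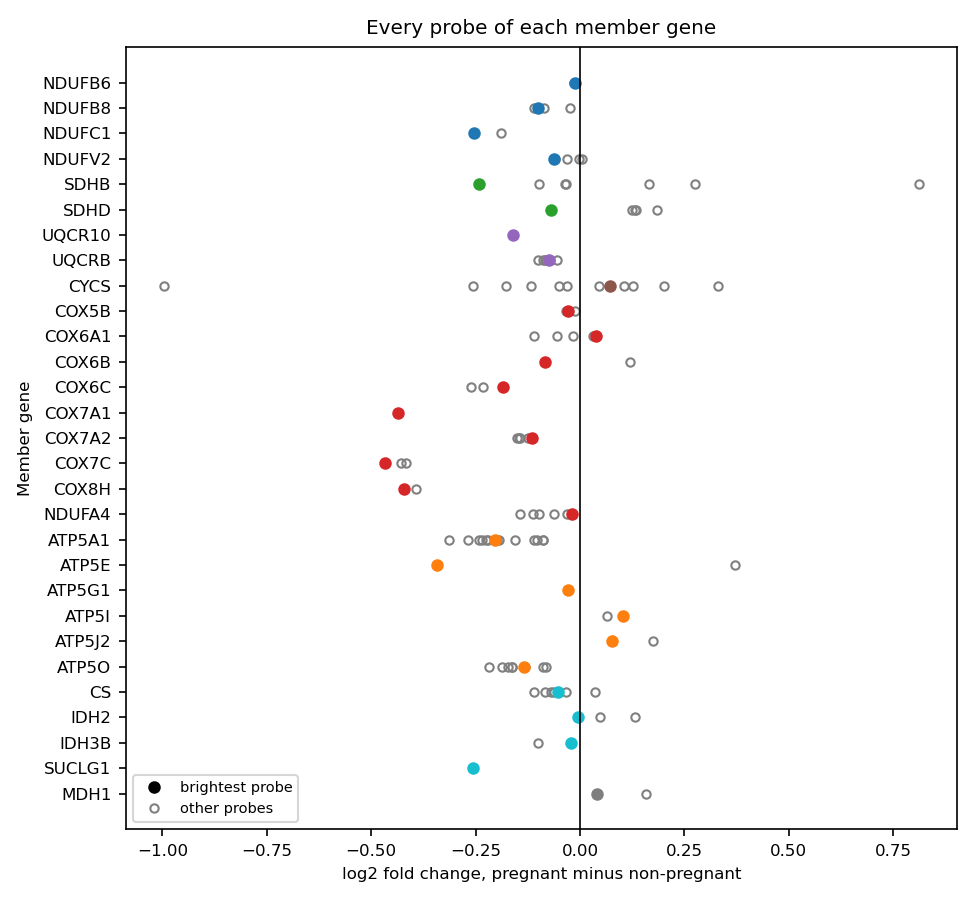
Log2 difference (pregnant minus non-pregnant, horizontal axis) at every probe of 29 of the 30 genes, with the brightest probe of a gene filled and the other probes open. The 14 ATP5A1 probes lie between -0.31 and -0.088, and single probes of SDHB (0.81) and CYCS (-0.997) lie away from the others of their gene.

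Other genes of mitochondrial energy metabolism were read from lists chosen by function. Of 52 further respiratory chain and pyruvate metabolism genes, only 9 were named on the array, and 8 of these 9 were kept. In pregnant sows 3 were higher and 5 lower (median -0.073), with 0 called by limma and 0 at an unadjusted p under 0.05. Among them, DLD, the dihydrolipoamide dehydrogenase shared by the 2-oxoacid dehydrogenases, differed by -0.14, DLST, of the 2-oxoglutarate dehydrogenase complex, by -0.083, and PDK1, a kinase that restrains pyruvate dehydrogenase, by -0.35. Of 16 mitochondrial carriers and channels, 7 were named on the array and all 7 were kept (4 higher, 3 lower, median 0.092). SLC25A3, the phosphate carrier that feeds ATP synthase, was at -0.12, and UCP2, an inner-membrane carrier, at 0.37. Of 16 biogenesis genes, 5 were named on the array and all 5 were kept (4 higher, 1 lower, median 0.11). Among them TFAM, which packages and transcribes mitochondrial DNA, was at 0.023. The lists for carriers and for biogenesis each had 0 genes called by limma and 0 at an unadjusted p under 0.05.

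Pathways that feed or bypass the mitochondrion gave a similar result. Of 9 fatty acid oxidation genes kept, 5 were higher and 4 lower (median 0.046), with CPT1A, the entry step for long-chain fatty acids, at 0.30 and ACADS, a short-chain acyl-CoA dehydrogenase, at -0.31. Of 6 glycolytic genes kept, 3 were higher and 3 lower (median -0.026), and of 6 antioxidant genes 2 were higher and 4 lower (median -0.070). In each of these lists 0 genes were called by limma and 0 had an unadjusted p under 0.05. By the median deviation, the lowest sow was pregnant replicate 2 for fatty acid oxidation (-0.35) and glycolysis (-0.39), and non-pregnant replicate 3 for the antioxidants (-0.34). For glycolysis non-pregnant replicate 3 was close, at -0.38. The median over all probes in pregnant replicate 2 was -0.27. By the mean deviation, non-pregnant replicate 3 was lowest for each of these lists.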

How the data were processed

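Scanner output of each array, deposited as 1 file, came from Agilent Feature Extraction (10.7.3.1 in the file headers, 10.7 in the submitters' processing notes). Per the file headers, the processed signal is a linear intensity after background subtraction, and arrays were not normalized to each other. A deposited table of log2 values, with normalization and software not given in the sources used here, served as an alternative (lowest r with its own array 0.999, column medians 5.02 to 5.03, same direction as the signal).

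Control spots and spots marked as outliers were left out (215 of 43603 probes dropped), spots of a probe were averaged as log2, and the array's 75th percentile was subtracted. A probe was kept if all 4 arrays of either group read it well above background (26480 probes). Of these, 4012 had a symbol, matched by RefSeq accession to a name table of the current pig assembly, with 5461 of 5760 RefSeq probes matched. The brightest probe over 8 arrays stood for a gene. Groups were compared with limma 3.58.1 (R 4.3.3; two-sided, no block), and code was tested on simulated data; Python 3.11.15, pandas 2.3.3 and matplotlib 3.10.9 were also used. Precision is limited by the number of arrays.

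The genes, lists, roles and tests were chosen with earlier results of these data known. The rule named any called gene, any gene whose groups did not overlap, the smallest p per role and direction, all TCA, complex II and cytochrome c genes, genes with discordant probes and muscle isoforms (17 genes, of which 16 are described); other genes were described after their values were seen. Alternatives were other normalizations, filters, slides, blocks, weights, probe rules and arrays left out. One member and 1 cell marker are counted in the totals but not reported here. No sequence is printed, since the tables used here hold none.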

Additional observations from a re-analysis of the deposited data

Results flagged for a closer look

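Each gene was examined in each group for a single sow far from the other 3, a gap to its neighbour that exceeded Dixon's 95% critical share of the group's range, and 2 of 60 such groups met the criterion. Chance alone marks about 1 in 20. ATP5A1 was low in non-pregnant replicate 3 at 5.44, while the rest of that group lay between 5.85 and 5.90. ATP5J2 measured 7.24 in pregnant replicate 2, against 5.44 to 5.55 in the other pregnant sows.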

How the results depend on the processing

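In every alternative that was run, 0 of the 30 genes and 0 of all probes were called by limma. The members' median ran from -0.25 to 0.023 when 1 array was left out and was -0.22 with array weights (1 higher, 29 lower, smallest member adjusted p 0.446). Probes at an unadjusted p under 0.05 numbered 605 of 26480 (2.28%) in the main fit, and the number of probes tested differed between settings. They numbered 336 of 26480 with plain background subtraction, 1024 of 43388 without a filter and 394 of 23624 with the strictest filter. Among named genes alone they numbered 44 of 1817. Over the 26480 probes of the main fit they numbered 938 on slide 1 alone, 2162 with array weights and 438 to 1070 with 1 array left out. Members at that p numbered 2 with array weights and 0 to 1 with 1 array left out.

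Signs of small differences turned as follows, and the cause was not tested. COX6A1 was -0.029 with quantile normalization, -0.0175 in the deposited table and -0.022 with the mean of all probes of a gene. On slide 1 alone ATP5A1 was 0.046, ATP5I -0.10, COX6A1 -0.10, CS 0.14, IDH2 0.25 and IDH3B 0.33. On slide 2 alone ATP5E was 0.21 and SDHD 0.10. With array weights ATP5I was -0.19, COX6A1 -0.15, CYCS -0.075, IDH2 0.024 and MDH1 -0.12. With the mean of all probes of a gene ATP5E was 0.014, CYCS -0.063, IDH2 0.059, SDHB 0.12 and SDHD 0.10. Among role medians, complex V was 0.077 on slide 2 alone, the TCA cycle 0.14 on slide 1 alone and complex II 0.11 with the mean of all probes; the TCA cycle kept its sign on slide 2 alone but moved to -0.37.

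With 1 array left out, the sign turned at least once for ATP5I (-0.15 to 0.25), COX6A1 (-0.12 to 0.17), CS (-0.14 to 0.067), CYCS (-0.23 to 0.33), IDH2 (-0.16 to 0.14), IDH3B (-0.16 to 0.10), MDH1 (-0.12 to 0.23) and SDHD (-0.24 to 0.22). Role medians turned too, for complex I (-0.30 to 0.067), complex II (-0.29 to 0.014) and complex IV (-0.26 to 0.014). Those of complex V (-0.25 to 0.020) and the TCA cycle (-0.16 to 0.057) also turned, and complex III kept its sign (-0.29 to -0.0080). Same-numbered sows deviated together in 3 pairs (r of 0.218, 0.481 and 0.434) but not in the fourth (-0.117), and not every sow correlated best with its own number, so numbers were not taken as pairs. The replicate block changed no call: the members' median was -0.080, 0 members were called and the smallest adjusted p was 0.999976. Across 5 other scalings or probe rules, 0 to 2 genes lay above their own mean in each sow numbered 3 and 27 to 30 in non-pregnant replicate 1, while pregnant replicate 2 was at -0.16 with quantile normalization. With scaling on the median, pregnant replicate 1 was at 0.48. Normexp background correction could not be fitted (the median of non-pregnant replicate 4 went from 29 to 915 signal units); plain background subtraction with an offset of 50 was chosen in its place after seeing the data.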

Other observations

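DLAT, the acetyltransferase of pyruvate dehydrogenase, varied between sows far more than any of the 30 genes described. It measured 0.0048, 4.14, 2.21 and -0.15 in pregnant and 0.10, 2.08, 1.52 and 0.74 in non-pregnant sows, and pregnant replicate 2 was highest. The group means were 1.55 ± 2.04 (SD, n = 4) and 1.11 ± 0.87 (SD, n = 4), with a log2 difference of 0.44 (95% interval -1.54 to 2.42). ACSL1, which activates long-chain fatty acids, was also highest in pregnant replicate 2, with values of 2.22, 4.15, 3.01 and 1.31 in pregnant and 2.41, 2.22, 2.33 and 1.96 in non-pregnant sows. UCP2 measured 6.77, 8.14, 7.19 and 6.43 in pregnant and 6.29, 6.66, 6.79 and 7.32 in non-pregnant sows. None of these 3 genes was called by limma (0).

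PPARGC1A, a coactivator of mitochondrial biogenesis, measured -3.66, -3.24, -2.82 and -1.61 in pregnant and -3.38, -3.90, -2.36 and -3.34 in non-pregnant sows, a log2 difference of 0.41 (95% interval -0.64 to 1.47). Of 3 mitochondrial ribosomal protein genes, MRPL2 differed by -0.074, MRPL52 by -0.085 and MRPS18B by 0.0036.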
